A study of Rattus norvegicus with 8 samples.

Results

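Levels of miRNAs from both families, miR-99/miR-100 and that of miR-125, were followed through 8 microRNA arrays of rat synovial tissue, the soft lining of the joint. The members were the array rows named rno-miR-99a-5p, rno-miR-99b-5p, rno-miR-100-5p, rno-miR-125a-5p and rno-miR-125b-5p, which made 5 of the 758 rat miRNAs on the array, each read by 2 probes. Each array held RNA from the left knee of Sprague-Dawley rats. In the 4 ACLT samples the anterior cruciate ligament had been transected through a medial arthrotomy, a surgical osteoarthritis model. In the 4 sham samples the ligament was only exposed. Synovium was taken from the side of the knee away from the incision. The series title gives 14 days after surgery, the protocol 2 weeks and the design text 7 days. The labels give no age or sex and do not say whether a sample was 1 animal or a pool, so p-values measure only how far these samples spread, and that spread may be technical.

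MicroRNAs are short RNAs that guide Argonaute proteins to messenger RNAs, mainly through their seed, the bases near the 5′ end. In vertebrates, precursors of the miR-99/miR-100 family lie beside a let-7 and a miR-125 precursor in clusters copied during evolution. miR-125 is the vertebrate counterpart of lin-4, which times larval development in Caenorhabditis elegans. In human and mouse cells, miR-99 and miR-100 are known repressors of mTOR and of the IGF1 receptor. miR-125b is known to repress the pluripotency factor Lin28 and, in human chondrocytes, the aggrecan-cleaving protease ADAMTS4.

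The mature sequences are shown because they define the families. They come from RefSeq (build GRCr8), run 5′ to 3′ and have the seed, bases 2 to 8, in capitals. For 4 of the 5 members a sequence was matched by name, and miR-99a-5p is named only. The first pair shares 1 seed and the second pair another:
rno-miR-99b-5p: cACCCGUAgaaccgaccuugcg
rno-miR-100-5p: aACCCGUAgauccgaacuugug
rno-miR-125a-5p: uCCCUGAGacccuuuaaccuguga
rno-miR-125b-5p: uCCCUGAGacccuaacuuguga

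miR-99b-5p lies at chr1:67350070-67350091, miR-100-5p at chr8:50798307-50798328, miR-125a-5p at chr1:67350689-67350712 and the Mir125b2 copy of miR-125b-5p at chr11:29732588-29732609, all on the plus strand of GRCr8. The array grid names the older build rn4, and no coordinate was taken from it. From miR-99b-5p to miR-100-5p the bases differ by C1A, A11U, C16A and C21U, counted from the 5′ end, and 18 of 22 are the same. miR-125a-5p and miR-125b-5p share their first 13 bases and are 24 and 22 bases long. On chromosome 1, Mir99b, Mirlet7e and Mir125a lie within 0.696 kb. On chromosome 8, Mir100, Mirlet7a-2 and Mir125b1 span 51.8 kb. On chromosome 11, Mir99a, Mirlet7c1 and Mir125b2 span 45.3 kb. 1 further rat miRNA in the table, miR-351-5p, has the miR-125 seed:
rno-miR-351-5p: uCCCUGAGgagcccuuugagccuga

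The arrays differed in brightness within both groups. Over probes that every array measured well above background, the 75th percentile was 797, 1097, 353 and 305 intensity units on ACLT replicates 1 to 4 and 289, 317, 353 and 1185 on sham replicates 1 to 4. ACLT replicates 1 and 2 and sham replicate 4 were thus 3 brighter arrays, and the other 5 were dimmer. No spot was saturated. Detected miRNAs numbered 120 to 169 per ACLT array and 111 to 184 per sham array. Mesenchymal miRNAs were present: the summed level of miR-199a-3p, miR-199a-5p, miR-214-3p, miR-143-3p and miR-145-5p, in multiples of the array's 75th percentile, was 6.28 to 9.63 on ACLT arrays and 5.71 to 8.61 on sham arrays, although miR-145-5p was at the measurement floor on every array. Striated muscle miRNAs varied most, with sums of 0.405 to 16.5 on ACLT arrays and 1.65 to 6.48 on sham arrays, where 3 of the 9 listed, miR-1-5p, miR-208a-3p and miR-208b-3p, were at the floor throughout. Leukocyte miRNAs summed to 0.255 to 0.315 on ACLT arrays and 0.289 to 0.366 on sham arrays, and 2 of the 5 listed, miR-142-5p and miR-155-5p, were at the floor throughout. A miRNA at the floor enters a sum at 0.0449. The leukocyte sums thus lay not far above what the floor alone gives, and the lowest muscle sum was almost all floor. On ACLT replicate 2 the tested muscle miRNAs averaged -4.47 on the log2 scale, next to the floor of -4.48. The 4 tested muscle miRNAs had positive differences, ACLT minus sham, with a median of 0.47 on the log2 scale. Differences were negative for 3 of 3 leukocyte miRNAs (median -0.21) and for 2 of 3 erythroid miRNAs (median -0.53). Mesenchymal miRNAs had 2 positive and 2 negative differences (median 0.04), and cartilage miRNAs 2 positive and 1 negative (median 0.25). The 1 endothelial miRNA tested (-0.20) and the 2 adipose and metabolic ones (median -0.09) were negative. Of all these miRNAs, 0 passed limma's adjusted p of 0.05. The part of these cell types in the results below was not tested, beyond leaving muscle probes out of the scaling.

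After ACLT the means of all 4 measured members were lower than after sham surgery, and none passed the test. Levels are log2 signals relative to each array's 75th percentile, read from the brightest of a miRNA's probes, for the members the brighter of 2. By limma across 113 miRNAs (those called detected on each of the 4 arrays of ACLT, of sham or of both), 0 of 113 passed an adjusted p of 0.05, which is 0%, and 8, or 7.08%, had an unadjusted p under 0.05. A negative difference was found for 4 of 4 members and for 73 of 113 miRNAs, or 64.6%. The median difference was -0.23 over the 4 members and -0.07 over all 113. In whole tissue, fewer cells of a type and less RNA per cell cannot be told apart.

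**Figure D1:**
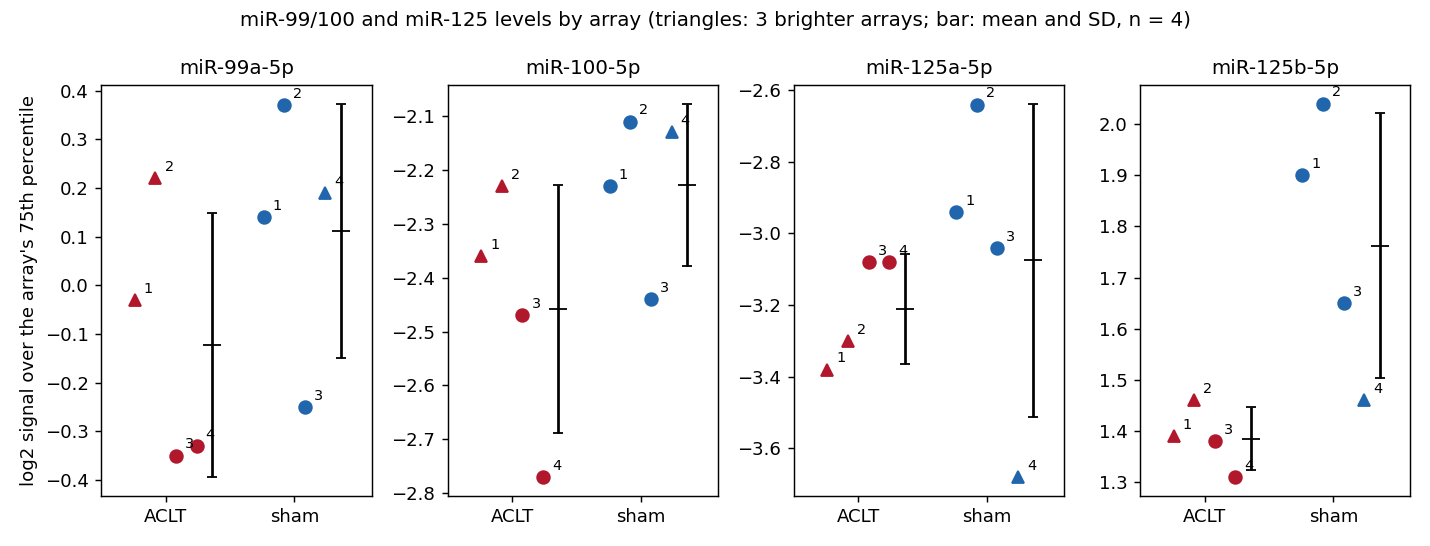
Log2 level of each measured member on every array (vertical axis, each panel with its own scale), ACLT left of sham, numbered by replicate. Triangles are the 3 brighter arrays and bars give the mean and SD. The 4 ACLT values of miR-125b-5p lie between 1.31 and 1.46, while its sham values run from 1.46 to 2.04.

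miR-125b-5p, the lin-4 relative, had levels of 1.39, 1.46, 1.38 and 1.31 in ACLT replicates 1 to 4, against 1.90, 2.04, 1.65 and 1.46 in sham replicates 1 to 4. The ACLT samples were tightly grouped, and 3 of them lay below every sham sample. Sham replicate 4, a brighter array, met the top of the ACLT range, so the groups overlapped. ACLT samples averaged 1.38 ± 0.06 and sham samples 1.76 ± 0.26 (SD, n = 4 each), a difference of -0.38 with a 95% interval of -0.69 to -0.07, or 1.30-fold lower. Its unadjusted p was the lowest of the 113 miRNAs, and limma's adjusted p was 0.645, with a range of 0.0578 to 1 over 32 alternatives. The lower bound of that range came without sham replicate 4, where the difference was -0.48 and 16.8% of all miRNAs had an unadjusted p under 0.05.

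miR-125a-5p, transcribed beside miR-99b, behaved otherwise within the groups. It had levels of -3.38, -3.30, -3.08 and -3.08 in ACLT replicates 1 to 4, against -2.94, -2.64, -3.04 and -3.68 in sham replicates 1 to 4. Sham replicates 1 to 3 lay above all ACLT samples and sham replicate 4 below all of them. ACLT samples averaged -3.21 ± 0.16 and sham samples -3.07 ± 0.44 (SD, n = 4 each), a difference of -0.14 with an interval of -0.65 to 0.38 and a limma adjusted p of 0.856 (0.184 to 1 over 32 alternatives). The difference rested on single sham arrays: it was -0.34 without sham replicate 4 and 0.01 without sham replicate 2.

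miR-99a-5p, the let-7c neighbour, had levels of -0.03, 0.22, -0.35 and -0.33 in ACLT replicates 1 to 4, against 0.14, 0.37, -0.25 and 0.19 in sham replicates 1 to 4. The 2 dimmer ACLT arrays were lowest, and sham replicate 3 lay close to them. ACLT samples averaged -0.12 ± 0.27 and sham samples 0.11 ± 0.26 (SD, n = 4 each), a difference of -0.24 with an interval of -0.66 to 0.18 and a limma adjusted p of 0.806.

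miR-100-5p, the let-7a-2 neighbour, had levels of -2.36, -2.23, -2.47 and -2.77 in ACLT replicates 1 to 4, against -2.23, -2.11, -2.44 and -2.13 in sham replicates 1 to 4. ACLT replicates 3 and 4 lay below every sham sample, and the other 2 within the sham range. ACLT samples averaged -2.46 ± 0.23 and sham samples -2.23 ± 0.15 (SD, n = 4 each), a difference of -0.23 with an interval of -0.55 to 0.09 and a limma adjusted p of 0.761.

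miR-99b-5p, the first precursor of the chromosome 1 cluster, was too dim for a test. Its brighter probe gave 28.9, 32.3, 11.3 and 10.1 intensity units in ACLT replicates 1 to 4, against 11.2, 13.4, 11.7 and 30.6 in sham replicates 1 to 4. The 3 brighter arrays carried the high values, and the probe was well above background on those arrays only, 2 ACLT and 1 sham. The scanner software called the miRNA detected on 3 ACLT and 2 sham arrays. After scaling, both probes lay at the floor of -4.48 on all 8 arrays, so no difference can be read.

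Each member's 2 probes were also compared one by one across 153 probes, each well above background on the 4 arrays of 1 group or both. Of the 10 member probes 6 entered that fit, 0 passed an adjusted p of 0.05 by limma, as did 0% of all 153, and the smallest adjusted p of any probe was 0.564. Differences were negative for all 6 member probes and for 61.4% of all probes. The dimmer miR-125b-5p probe had levels of -2.30, -1.94, -1.53 and -1.91 in ACLT replicates 1 to 4, against -1.13, -0.97, -1.12 and -2.38 in sham replicates 1 to 4. Sham replicate 4 stood apart from the other sham arrays, at the bottom of all 8. The difference of that probe was -0.52 with an interval of -1.28 to 0.23. The dimmer miR-99a-5p probe differed by -0.28.

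The dimmer miR-100-5p probe, which was well above background on 2 ACLT and 3 sham arrays and stayed out of the fit over probes, had levels of -4.16, -4.13, -4.38 and -4.48 in ACLT replicates 1 to 4, against -4.09, -3.88, -4.09 and -3.99 in sham replicates 1 to 4. All ACLT values lay below all sham values there, by a narrow margin and with 1 ACLT array at the floor. Such separation was found for 2 of 216 probes above the floor on at least 1 array, or 0.926%. With every miRNA read from its dimmest probe, miR-100-5p had a limma adjusted p of 0.572. The groups of the brighter miR-100-5p probe overlapped. The dimmer miR-125a-5p probe was above the floor on sham replicate 2 only, at -4.47.

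Spots of the brighter probes of the 4 tested members lay close together within an array. On the dimmer miR-99b-5p probe they did not, and the spot SD on the log2 scale was 0.31 to 1.73. That range leaves out ACLT replicate 4, where not every spot was above 0. For the dimmer probes of miR-125b-5p and miR-99a-5p the median spot SD was 0.07 and 0.08. Of the brighter miR-125b-5p probe 5 to 8 spots per array were used, and their SD on the log2 scale had a median of 0.06 over the arrays, against an SD between arrays of 0.06 after ACLT and 0.26 after sham surgery. For the brighter miR-125a-5p probe, with 4 to 6 spots used, the median spot SD was 0.05, against 0.16 between ACLT arrays and 0.44 between sham arrays. Spot SDs are those of single spots, whereas an array's value is a mean over its spots. For the brighter miR-125b-5p probe the standard error over spots, on the log2 scale, was 0.008 to 0.053 over the arrays. Spot SDs leave out variation in labelling and in array brightness.

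The sign of the differences depended on the scaling for 3 of the 4 members. Over 6 other scalings the median difference of all tested miRNAs moved between -0.28 and 0.25. miR-99a-5p and miR-100-5p were positive under 3 of the 6 and miR-125a-5p under 4, while miR-125b-5p was negative or at 0 to 2 decimals under all 6. The 3 were the 75th percentile over all probes, no scaling and the authors' value table. The last 2 of these both leave the arrays unscaled. With striated muscle probes left out of the 75th percentile, the differences were -0.095 for miR-99a-5p, -0.088 for miR-100-5p, 0.0072 for miR-125a-5p and -0.23 for miR-125b-5p, and the median of all tested miRNAs was 0.03. Relative to the median of all tested miRNAs under the same scaling, miR-125b-5p differed by -0.58 to -0.24, miR-99a-5p by -0.18 to -0.10, miR-100-5p by -0.17 to -0.10 and miR-125a-5p by -0.10 to 0.

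**Figure D2:**
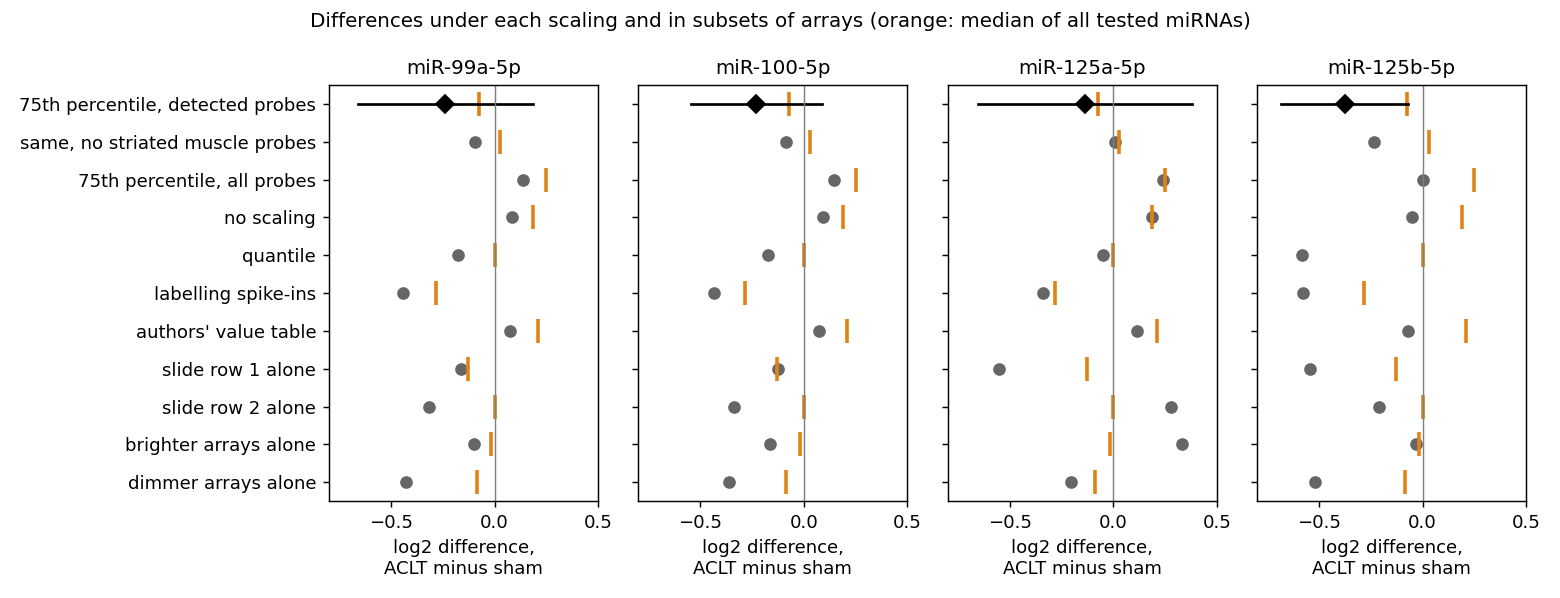
Log2 difference, ACLT minus sham, of each measured member (horizontal axis) under the scaling used here with its 95% interval (top), under 6 other scalings and within subsets of arrays. Orange ticks give the median of the 113 tested miRNAs, which moves with the scaling from -0.28 to 0.25. The points of miR-125b-5p stay left of the tick in all rows.

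Slide row here is a number in the name of each array's scan, not a label of the samples. In slide row 1 both ACLT arrays were brighter ones and both sham arrays dimmer ones, so there surgery and brightness cannot be told apart. Within that row, which held replicates 1 and 2 of both groups, the difference was -0.55 for miR-125b-5p and -0.55 for miR-125a-5p. Within row 2 it was -0.21 for miR-125b-5p and 0.28 for miR-125a-5p. For miR-99a-5p the values were -0.16 in row 1 and -0.31 in row 2, and for miR-100-5p -0.13 and -0.34. Row 2 held 1 brighter array, sham replicate 4, so brightness was uneven between the groups there too. In that row miR-125a-5p was at -3.68 on sham replicate 4, against -3.04 on sham replicate 3 and -3.08 on each ACLT array. Negative differences were found for 4 of 4 members against 64.6% of all miRNAs in row 1, and for 3 of 4 against 46.9% in row 2. In row 1, 8 miRNAs passed limma's adjusted p, or 7.08%, with no member among them. Within the 5 dimmer arrays, 2 ACLT and 3 sham, miR-125b-5p differed by -0.52, miR-99a-5p by -0.43, miR-100-5p by -0.36 and miR-125a-5p by -0.20, all negative as were 65.5% of all miRNAs. Within the 3 brighter arrays, 2 ACLT and 1 sham, the differences were -0.03 for miR-125b-5p, -0.10 for miR-99a-5p, -0.16 for miR-100-5p and 0.33 for miR-125a-5p, 3 of 4 negative against 52.2% of all miRNAs. The gap of miR-125b-5p was thus found among the dimmer arrays and was near 0 among the brighter ones, where 1 sham array stands alone. Whether the difference changes with brightness was not tested.

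The members also differed in how their levels varied over the 8 arrays. miR-99a-5p and miR-100-5p, of 1 family but of different chromosomes, varied together, with Pearson's r = 0.891 (exact permutation p = 0.00159, adjusted p = 0.00952 over 6 pairs of members) and Spearman's rho = 0.905 (exact permutation p = 0.00456, adjusted p = 0.0274). Without ACLT replicates 3 and 4, the arrays farthest from the median of miR-99a-5p, r was 0.950. Whether the probes of miR-99a-5p and miR-100-5p also read each other's miRNA was not tested. For miR-125a-5p and miR-125b-5p, r was 0.695 (exact permutation p = 0.0555, adjusted p = 0.166) and rho 0.619 (exact permutation p = 0.115, adjusted p = 0.172), with r = 0.576 without sham replicates 2 and 4. For miR-99a-5p and miR-125b-5p, which share the chromosome 11 cluster, r was 0.611 (exact permutation p = 0.112, adjusted p = 0.187) and rho 0.714 (exact permutation p = 0.0576, adjusted p = 0.115), with r = 0.385 without ACLT replicates 3 and 4. All levels on an array share its scaling, and over all 3003 pairs of the 78 tested miRNAs above the floor on every array the median r was 0.182. For miR-100-5p and miR-125b-5p, of the chromosome 8 cluster, r was 0.594 (exact permutation p = 0.125, adjusted p = 0.187) and rho 0.762 (exact permutation p = 0.0368, adjusted p = 0.110), with r = 0.206 without ACLT replicate 4 and sham replicate 2. miR-125a-5p showed r = 0.0297 with miR-99a-5p (exact permutation p = 0.949, adjusted p = 0.949; rho = 0.0714, exact p = 0.882, adjusted p = 0.882). With miR-100-5p it showed r = -0.063 (exact permutation p = 0.881, adjusted p = 0.949; rho = 0.143, exact p = 0.752, adjusted p = 0.882). Without ACLT replicates 3 and 4, r with miR-99a-5p was 0.190, and without ACLT replicate 4 and sham replicate 2, r with miR-100-5p was -0.568. The brightness classes hold too few arrays for an r of their own.

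**Figure D3:**
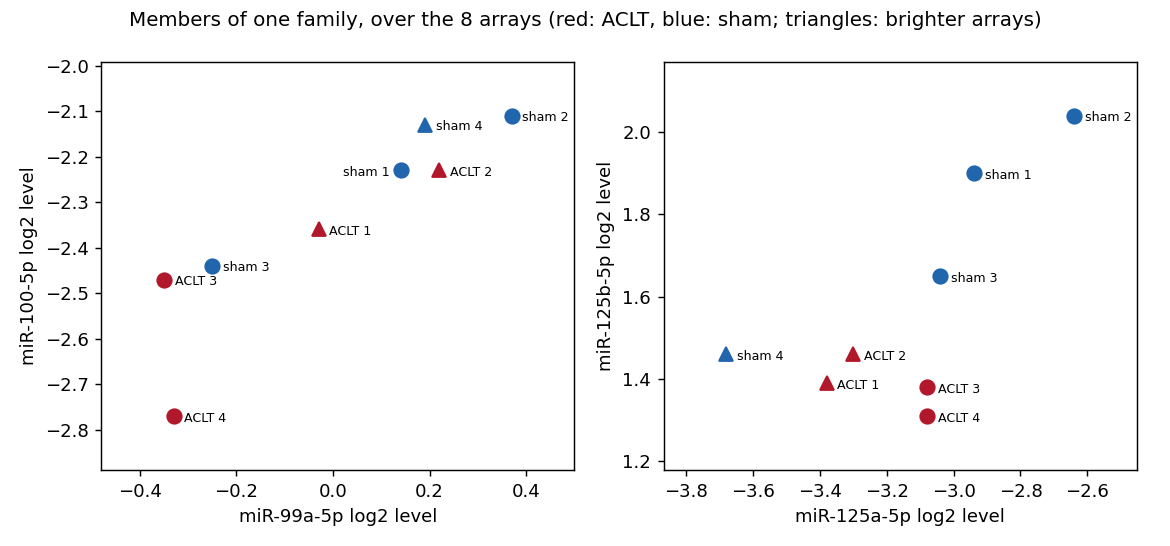
Log2 levels of miR-100-5p against miR-99a-5p (left) and of miR-125b-5p against miR-125a-5p (right), 1 point per array, ACLT in red and sham in blue, with triangles for the 3 brighter arrays. The left points rise along a line (r = 0.891), while on the right the brighter arrays sit at low miR-125a-5p.

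A difference between members on the same array is not changed by dividing the array by 1 value, though quantile normalization does change it, and only its change between arrays is read here. The log2 difference miR-99a-5p minus miR-100-5p was steady, at 2.32, 2.45, 2.11 and 2.44 in ACLT replicates 1 to 4 and 2.37, 2.48, 2.19 and 2.32 in sham replicates 1 to 4. The difference miR-99a-5p minus miR-125b-5p was -1.42, -1.24, -1.73 and -1.64 in ACLT replicates 1 to 4 and -1.76, -1.67, -1.89 and -1.26 in sham replicates 1 to 4. It was highest on the 3 brighter arrays of both groups. The difference miR-100-5p minus miR-125a-5p was 1.03, 1.07, 0.61 and 0.31 in ACLT replicates 1 to 4 and 0.72, 0.53, 0.60 and 1.55 in sham replicates 1 to 4, again with the 3 brighter arrays on top. Both miR-125 members were thus lower against the miR-99 and miR-100 members on every brighter array than on any dimmer one, in ACLT and sham samples alike. Such a split was common: brighter and dimmer arrays did not overlap for 4 of 6 pairs of members and for 1038 of the 3003 pairs of all 78 miRNAs above the floor, or 34.6%. ACLT and sham overlapped for all 6 differences between members.

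On the scaled levels themselves, the brighter arrays averaged -3.45 ± 0.20 (SD, n = 3) for miR-125a-5p and the dimmer ones -2.96 ± 0.19 (SD, n = 5). For miR-125b-5p they averaged 1.43 ± 0.04 and 1.65 ± 0.32 (SD, n = 3 and 5). The shift between brighter and dimmer arrays was -0.50 for miR-125a-5p and -0.22 for miR-125b-5p, against 0.21 for miR-99a-5p and 0.16 for miR-100-5p and a median of 0.12 over the 78 miRNAs. From the lowest shift upward, miR-125a-5p was 16th and miR-125b-5p 21st of the 78, whose shifts ran from -2.51 to 0.82. The 2 probes of miR-125b-5p moved apart in the same way. The brighter probe minus the dimmer one was 3.69, 3.40, 2.91 and 3.22 in ACLT replicates 1 to 4 and 3.02, 3.01, 2.76 and 3.83 in sham replicates 1 to 4, and its 3 highest values fell on the 3 brighter arrays. Its shift of 0.66 between brighter and dimmer arrays was the largest among 47 miRNAs with such a probe pair, whose median shift was 0.12, and for 24 of the 47 the brighter and dimmer arrays did not overlap. Both probes read 1 miRNA in 1 RNA sample. The comparison by brightness was chosen after the values were seen.

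**Figure D4:**
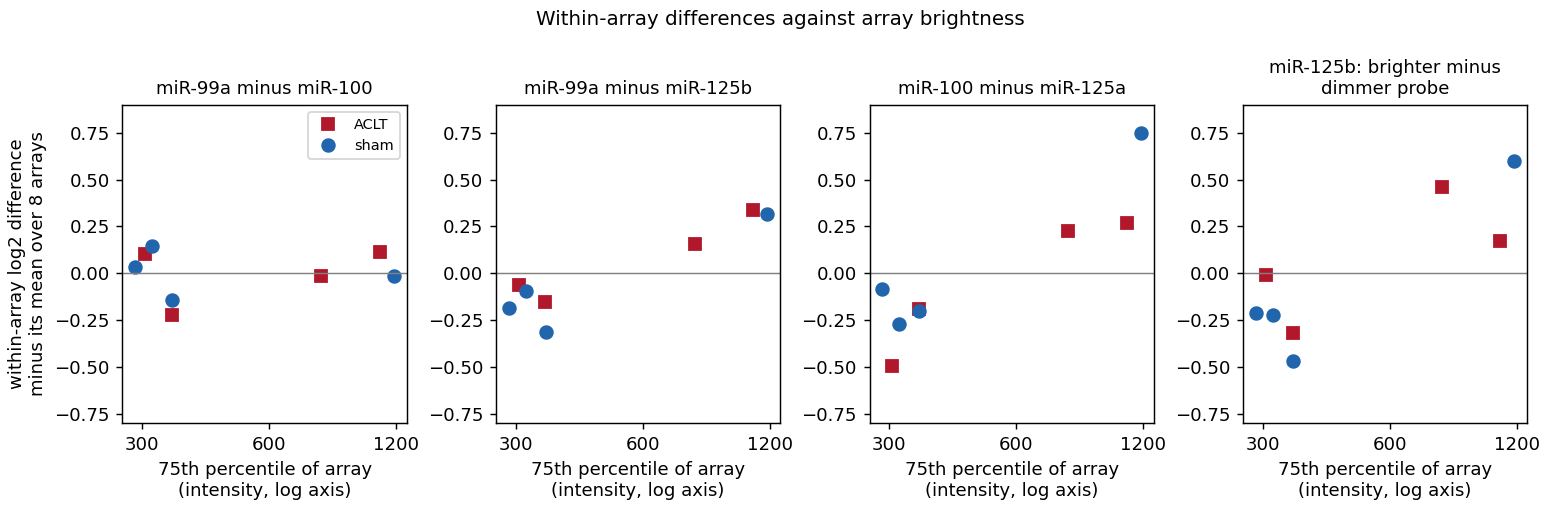
Within-array log2 differences, each minus its mean over the 8 arrays (vertical axis), against the array's 75th percentile (horizontal axis, log scale), with ACLT as squares and sham as circles. miR-99a-5p minus miR-100-5p stays flat, while the other 3 differences are higher on all 3 brighter arrays.

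Of the miRNAs outside the families, those most like miR-99a-5p over the 8 arrays were miR-16-5p (r = 0.980), miR-195-5p (r = 0.917) and miR-15a-5p (r = 0.914), chosen from 74 candidates. The same 3 were most like miR-100-5p, with r = 0.889 for miR-15a-5p, 0.878 for miR-16-5p and 0.868 for miR-195-5p. miR-125b-5p was most like miR-152-3p (r = 0.866), miR-324-3p (r = 0.849) and miR-181a-5p (r = 0.803). miR-125a-5p was most like miR-1224 (r = 0.909), miR-26a-5p (r = 0.883) and miR-494-3p (r = 0.872). The top names of miR-99a-5p and miR-100-5p were thus shared, and those of miR-125a-5p and miR-125b-5p were not. These r values describe 8 arrays on 1 scaling and carry no test.

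Relatives of the families were read from a list of 16 names, of which 14 were on the array, 7 were detected on no array and 7 were tested. Of the 7, 6 had a negative and 1 a positive difference, and 0 passed limma's adjusted p. Of the 6 passenger arms, the strands usually discarded when the duplex is loaded, 4 were detected on no array: miR-100-3p, miR-125a-3p, miR-125b-1-3p and miR-125b-2-3p. miR-99a-3p and miR-99b-3p were called detected on all arrays, yet lay at or near the floor, at -4.44 ± 0.07 after ACLT and -4.36 ± 0.16 after sham surgery for miR-99a-3p and at -4.48 ± 0 and -4.41 ± 0.11 for miR-99b-3p (SD, n = 4 each). miR-351-5p, with the miR-125 seed, was detected on no array.

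The let-7 partners of the clusters are known repressors of Lin28 and Ras messages. The differences of let-7c-5p and let-7a-5p were nearer to 0 than those of miR-99a-5p and miR-100-5p beside them. let-7c-5p averaged 3.40 ± 0.15 in ACLT samples and 3.50 ± 0.27 in sham samples (SD, n = 4 each), a difference of -0.10 (limma adjusted p = 0.840). let-7e-5p differed by -0.06 and let-7a-5p by -0.01. Over the arrays, r between miR-99a-5p and its cluster partner let-7c-5p was 0.902, close to the 0.891 between miR-99a-5p and miR-100-5p. For miR-100-5p and let-7a-5p r was 0.715. For miR-125b-5p r was 0.617 with let-7c-5p and 0.162 with let-7a-5p. For miR-125a-5p and let-7e-5p r was -0.200. These r values with let-7 carry no test. let-7a-5p and let-7c-5p are also made from precursors outside these clusters. Whether the members and their partners differ in response was not tested. The miR-10 relatives went to opposite sides: miR-10a-5p averaged -3.45 ± 0.17 after ACLT and -3.09 ± 0.36 after sham surgery (difference -0.35, limma adjusted p = 0.703), and miR-10b-5p -0.81 ± 0.35 and -0.88 ± 0.27 (difference 0.08, limma adjusted p = 0.955; SD, n = 4 each). miR-10a-5p is shown because it repeats a stretch of 11 bases of miR-100-5p, marked in capitals here:
rno-miR-10a-5p: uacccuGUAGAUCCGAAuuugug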

How the data were processed

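Total RNA of rat synovial tissue was measured on 8 single-colour arrays, 4 ACLT and 4 sham by title. Per the labels, Cy3-labelled cRNA was made from 50 ng with a Low Input Quick Amp kit, which is made for messenger RNA; its use here is not settled. Per the file headers, the authors quantified design 070154 under protocol miRNA_107_Sep09 in Feature Extraction version 10.7.3.1. The deposited values are background-subtracted intensity in linear units, not scaled between arrays, and the deposited value table equals the software's summary per miRNA (largest difference 0).

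Outlier spots were left out, spots were averaged per probe, and probe signals were scaled to the array's 75th percentile, taken from the 136 of 1806 probes that were well above background throughout. Values under a floor of 0.0449 were raised to it before log2. The brightest probe by mean over the arrays stood for a miRNA. ACLT and sham were compared with limma 3.58.1 in R 4.3.3 (lmFit, eBayes, no covariate, Benjamini-Hochberg), which was tested on simulated data. The simulated noise was drawn separately for each miRNA and array, without shared array brightness. That run thus cannot tell how the fit behaves under the brightness of these arrays. The precision is limited by the number of arrays, and well-above-background spots made up 10.5% to 17.0% per array. The members and lists were chosen with earlier results of these data known. Named were the members, a list of relatives and the 3 miRNAs most correlated with each member. Alternatives covered scaling, probes, filters, floor, variance model, slide row, replicate block and single arrays; the brightness classes were added after the data were seen. Replicates 1 to 4 share numbers only, so the replicate block is no main fit. As no mean signal column was used, normexp (offset 50) was run on median signals.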

Additional observations from a re-analysis of the deposited data

Results flagged for a closer look

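One array lay far from the other 3 of its group for 6 of 40 group values, where chance gives about 2 (1 in 20) without ties. That rate does not hold for groups with values tied at the floor, as in 3 of the 6. No excess over chance can thus be read from the count. For the dimmer miR-125b-5p probe, sham replicate 4 was at -2.38, against -1.13 to -0.97 in sham replicates 1 to 3, and the gap took up 0.886 of the group's range. The same array stood apart in brightness, with a log2 75th percentile of 10.21 against 8.18 to 8.46 on the other sham arrays (0.858 of the range). For let-7e-5p, sham replicate 3 was at -0.66 against -0.11 to -0.02 (0.865). The other 3 lay above a floor of -4.48 that held at least 2 of the other 3 arrays of the group: the dimmer miR-125a-5p probe on sham replicate 2 at -4.47 against -4.48 (the whole range, 1), miR-99a-3p on ACLT replicate 4 at -4.33 against -4.48 (1), and miR-99b-3p on sham replicate 2 at -4.26 against -4.48 to -4.44 (0.856).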

How the results depend on the processing

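Over 31 alternatives the count of miRNAs past an adjusted p of 0.05 was 0 under 29, 1 with the authors' value table and 8 in slide row 1 alone, and no member passed under any. Over 32 alternatives the difference of miR-125b-5p stayed negative, from -0.58 to -5.4e-05 (75th percentile over all probes). The alternatives of floor, filter, variance model, slide row as a block and replicate block cannot change that estimate. It stayed at -0.38 under each of them, so its sign there adds no support. With the 75th percentile over all probes, no scaling and the authors' value table, the sign turned for miR-99a-5p (0.14, 0.086 and 0.073), miR-100-5p (0.15, 0.093 and 0.073) and miR-125a-5p (0.24, 0.19 and 0.11). miR-125a-5p also turned with striated muscle probes left out of the percentile (0.0072), in slide row 2 alone (0.28) and in the brighter arrays alone (0.33). Dividing each array by a different value shifts the differences of the members above the floor by 1 common amount. Turns under such scalings are thus not separate results. Why the scalings differ between the groups, and why the subsets of arrays turned, was not tested. Leaving out 1 array gave -0.48 to -0.28 for miR-125b-5p, -0.36 to -0.15 for miR-99a-5p, -0.31 to -0.13 for miR-100-5p and -0.34 to 0.010 for miR-125a-5p. miR-99b-5p, at the floor as reported, differed by 0.23 with the percentile over all probes, 0.22 with no scaling, 0.14 with quantile normalization, 0.028 with labelling spike-ins, 0.36 in the Feature Extraction summary, 1.89 in the authors' value table, where undetected arrays hold 0.1, -0.20 with normexp and -0.082 with a lower floor; none is a test. With the replicate block the estimates are the same by construction, and miR-125b-5p had a limma adjusted p of 0.704. Deviations of same-numbered samples correlated at -0.410 to 0.799, and 2 of 4 ACLT arrays correlated best with their own number. Signal over background limits miR-99b-5p and both miR-99 passenger arms.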
